A study of Homo sapiens with 3 samples.

Results

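The colony-stimulating factors and a pair of related cytokines are described here by the 5 genes CSF1, CSF2, CSF3, IL11 and LIF, out of 43913 genes listed in the count files. They were selected on their family together with earlier values of the same data, in which the stromal level of several of them in coculture was already known. Every level and ratio given below for them is therefore a description. All 5 symbols were found, and all 5 reached a mean of 10 CPM in HS-5 cells, where CPM is a gene's UMIs per 1000000 UMIs of the pooled cells. A UMI (unique molecular identifier) stands for 1 captured transcript molecule.

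The study asked what myeloma and stromal cells do to each other's transcription when they share a dish. It profiled single cells by Drop-seq, which captures polyadenylated RNA of cells in droplets, in 3 libraries: MM.1S cells alone, HS-5 cells alone, and both lines after 4 h together. MM.1S is a human multiple myeloma line, and HS-5 is an immortalised human bone marrow stromal line, so each is 1 established line standing in for a cell type. No library received an added cytokine or drug according to the labels, and the proportion of the lines in the coculture is not given in the sources used here. There was 1 library per condition, so differences between conditions carry no replicate error, no test was made, and every interval below is an exact 95% interval that covers counting error only.

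After cells with fewer than 200 genes were removed, 3732 HS-5 cells and 3947 MM.1S cells remained in the monocultures and 3856 cells in the coculture. Coculture cells were assigned to a line by the share of HS-5 UMIs among UMIs of genes at least 50-fold different between the monocultures, with the 5 cytokine genes left out of that list. This gave 2102 HS-5 cells, with a share above 0.8, and 1645 MM.1S cells, with a share below 0.2. Another 103 cells in between, which may hold both lines, were set aside, as were 6 cells with under 5 such UMIs. No doublet caller was run, and doublets within a line were left in. The median UMI count per cell was 971.5 and 957.0 for HS-5 cells in monoculture and coculture, against 2201.0 and 669.0 for MM.1S cells. Stromal markers summed to 7214 and 7817 CPM in HS-5 cells alone and in coculture, and to 1254 and 3520 CPM in MM.1S cells. In HS-5 cells COL3A1 (4.88 and 4.85 CPM) and TAGLN (0.326 and 0 CPM) were near 0. FN1 was higher in MM.1S cells (810 and 2228 CPM) than in HS-5 cells (252 and 280 CPM). Plasma cell markers summed to 208 and 223 CPM in HS-5 cells and to 10104 and 6886 CPM in MM.1S cells. Among them SDC1 was higher in HS-5 (135 CPM) than in MM.1S monoculture (38.1 CPM). Macrophage markers summed to at most 10.1 CPM in any of the 4 populations. The libraries shared between 39 and 76 cell barcodes pairwise.

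CSF1 (macrophage colony-stimulating factor), CSF2 (GM-CSF) and CSF3 (G-CSF) are secreted proteins that drive the survival, growth and differentiation of myeloid cells. In bone marrow, stromal cells are one of their sources and respond to inflammatory signals by making more of them. IL-11 and LIF belong to the interleukin-6 family, which signals through the shared receptor chain gp130 and JAK and STAT proteins. Messenger RNAs of such cytokines commonly carry AUUUA pentamers in the 3′ UTR, which bind proteins that control how fast the message decays, and their promoters respond to NF-κB and AP-1.

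The stretches of 3′ UTR richest in the pentamer are shown because the density and overlap of the pentamers differ among the 5 messages. Each is a window of 30 bases in GRCh38 (GENCODE release 29), on the transcript strand and written as DNA, with ATTTA in capitals.
CSF2, chr5:132076077-132076106, plus strand: aaatATTTATTTATTTATTTATTTAagttc
IL11, chr19:55365942-55365971, minus strand: cagatcttATTTATTTATTTAtttcagtac
CSF3, chr17:40016986-40017015, plus strand: tatctctATTTAatATTTAtgtctATTTAa
LIF, chr22:30240522-30240551, minus strand: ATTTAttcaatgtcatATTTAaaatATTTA
CSF1, chr1:109930918-109930947, plus strand: aaagtcATTTAaatatctATTTAaaagata

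The CSF2 window held 5 overlapping pentamers and that of IL11 held 3, whereas the 3 pentamers of CSF3 and of LIF and the 2 of CSF1 stood apart from each other. Per kilobase of 3′ UTR, CSF2 carried 25.2 pentamers, CSF3 8.20, IL11 5.56, LIF 2.18 and CSF1 1.86. On the transcript strand, the single pentamer ATTTA occurred in 66.8% of 19115 genes with an annotated 3′ UTR. The run ATTTATTTATTTA, made of 3 overlapping pentamers, occurred in 160 of them (0.837%), with CSF2 and IL11 among these.

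Of the 5 genes, the table of promoters (RefSeq, GRCh38.p14) held CSF2 and IL11. Their 250 bases before the start are shown because they were the members available, whereas CSF1, CSF3 and LIF were not in it. Capitals mark the matches to an NF-κB motif (GGGNNNNNCC) or an AP-1 motif (TGANTCA), searched on both strands.
CSF2, chr5:132073539-132073788, plus strand: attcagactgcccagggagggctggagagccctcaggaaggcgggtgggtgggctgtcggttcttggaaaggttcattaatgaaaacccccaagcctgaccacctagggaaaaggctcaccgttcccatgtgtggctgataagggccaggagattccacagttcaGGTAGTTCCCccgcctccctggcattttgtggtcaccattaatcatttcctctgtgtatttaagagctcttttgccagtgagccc
IL11, chr19:55370464-55370713, minus strand: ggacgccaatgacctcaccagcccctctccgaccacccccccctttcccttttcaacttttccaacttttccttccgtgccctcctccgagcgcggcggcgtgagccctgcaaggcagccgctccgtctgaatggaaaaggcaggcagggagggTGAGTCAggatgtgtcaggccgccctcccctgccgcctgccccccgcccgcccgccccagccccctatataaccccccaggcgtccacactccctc

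The CSF2 window matched the NF-κB motif once, 85 bases before the start, on the strand opposite to the one printed. Such a match was present in 58.7% of all 35116 promoters, each searched over 300 bases. The IL11 window matched the AP-1 motif once, 96 bases before the start, and 7.71% of promoters did so. The letters of the other motif were not in either window, which says nothing about the factor.

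In HS-5 cells alone, the order of the 5 transcripts was CSF3, CSF2, IL11, CSF1 and LIF, with levels from 917 to 14.7 CPM. Divided by transcript length the order was the same, at 548, 245, 22.3, 5.41 and 3.69 CPM per kilobase. Neighbours in the CPM order did not overlap in their counting intervals. Drop-seq reads the 3′ end of transcripts, so both scales are given. In HS-5 cells of the coculture the CPM order was CSF3, CSF2, IL11, LIF and CSF1, and from CSF2 on each neighbour's interval overlapped the next.

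CSF3, the growth factor for neutrophils, stood at 917 CPM (893–941, 5631 UMIs) in HS-5 cells alone. In HS-5 cells of the coculture it stood at 470 CPM (443–498, 1163 UMIs), 1.95-fold lower (1.83–2.08). In MM.1S cells it was at 0.383 CPM alone and 4.51 CPM in coculture. It was thus a stromal transcript with a lower level in coculture, and the stromal intervals did not overlap.

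CSF2, which acts on granulocytes and macrophages, stood at 192 CPM (182–204, 1182 UMIs) in HS-5 cells alone and at 26.3 CPM (20.3–33.5, 65 UMIs) in HS-5 cells of the coculture. The cocultured cells held 13.6% of the monoculture level, a 7.33-fold difference (5.71–9.56). MM.1S cells had 1 CSF2 UMI in each culture, 0.0958 CPM alone and 0.752 CPM in coculture. No other member differed as much between the stromal populations, and CSF2 and IL11, which were 3.78-fold apart in HS-5 cells alone, had overlapping intervals in coculture.

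IL11 stood at 51.0 CPM (45.5–56.9, 313 UMIs) in HS-5 cells alone and 24.6 CPM (18.8–31.7, 61 UMIs) in coculture, 2.07-fold lower (1.57–2.77). In MM.1S cells it was at 1.05 CPM alone, with 5 of the 11 UMIs in a single cell, and at 2.25 CPM in coculture.

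CSF1, the growth factor of macrophages and osteoclasts, stood at 22.8 CPM (19.2–26.9, 140 UMIs) in HS-5 cells alone and 15.4 CPM (10.9–21.1, 38 UMIs) in coculture. These intervals overlapped, and the interval of their 1.48-fold difference reached down to 1.03-fold. MM.1S cells held 2.88 CPM (1.94–4.10) alone and 6.01 CPM (2.60–11.8) in coculture, so the distance between the lines was smallest for CSF1.

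LIF stood at 14.7 CPM (11.8–18, 90 UMIs) in HS-5 cells alone and 16.6 CPM (11.9–22.5, 41 UMIs) in coculture. It was the one member with the higher point value in coculture, and the interval of its log2 ratio, -0.39 to 0.72, spanned 0. MM.1S cells held 0.192 CPM alone and 0.752 CPM in coculture, from 2 UMIs and 1 UMI. Antisense genes overlap LIF on the opposite strand, AC004264.1 by 647 bases and LIF-AS1 by 92 bases, and they had at most 6 UMIs in any library.

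**Figure D1:**
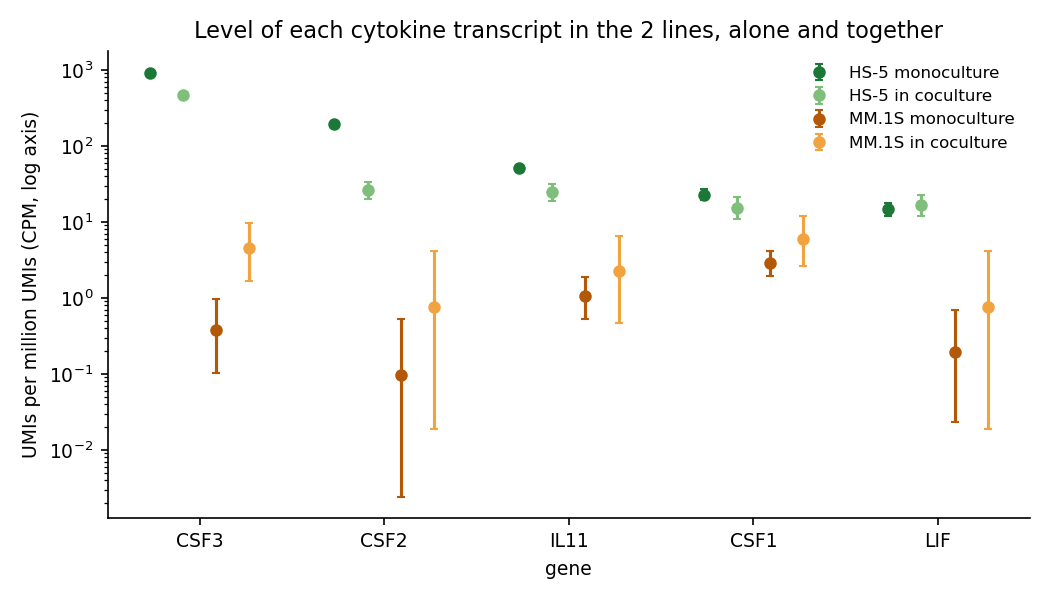
Level of each member in CPM (logarithmic axis) in HS-5 and MM.1S cells, each from monoculture and coculture. Points are pooled levels of 1 library per condition and bars are exact 95% counting intervals. CSF2 lies at 192 and 26.3 CPM in HS-5 cells, while the LIF points lie within each other's bars, and all MM.1S points lie at or below 6.01 CPM.

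In HS-5 monoculture against MM.1S monoculture, CSF3 was 663-fold, CSF2 177-fold, IL11 25.3-fold, LIF 13.1-fold and CSF1 6.14-fold higher in the stromal line, on CPM with a pseudocount of 1. LIF did not reach a mean of 10 CPM over both lines, and of the 4 members that did, 3 were at least 10-fold higher in HS-5, where 7.98% of 8734 genes were.

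On the scale log2((CPM + 1)/(CPM + 1)), coculture over monoculture, the differences in HS-5 cells were -2.83 for CSF2 (-3.26 to -2.51), -1.02 for IL11 (-1.47 to -0.65), -0.96 for CSF3 (-1.06 to -0.87), -0.54 for CSF1 (-1.13 to -0.04) and 0.17 for LIF (-0.39 to 0.72). The median of the 5 was -0.96. Over all 8810 genes that reached a mean of 10 CPM in HS-5 cells, the median was -0.04 with quartiles of -0.31 and 0.25. At least 2-fold lower were 2 of the 5 members, against 161 genes (1.83%) in all, but since such values were known when the members were selected nothing is read from that count. IL11 was just inside the 2-fold limit and CSF3, at -0.96, just outside it. IL11 was outside it with median of ratios scaling, a pseudocount of 5 or cells of at least 500 genes. At least 2-fold higher were 0 of the 5 members and 107 genes (1.21%). Counted from the lowest of the 8810 ratios, CSF2 was number 4, IL11 number 148, CSF3 number 187, CSF1 number 1028 and LIF number 6007.

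Transcript length moved with the ratio over all genes. In 4 equal groups by length, the medians were 0.19, -0.02, -0.09 and -0.17 from the shortest to the longest. CSF2 (787 bases) and CSF3 (1673 bases) belong to the group of shortest transcripts, which had the highest median, and they lay 3.02 and 1.15 below it on the log2 scale. IL11 lay 1.00 below the median of its own group.

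Among the 79 measured genes with the run ATTTATTTATTTA, 6 were at least 2-fold lower in cocultured HS-5 cells (7.59%), against 137 of 8165 without it (1.68%). The median log2 ratios of these groups of genes were -0.11 and -0.05. The run was looked up after the member values were known and its 6 lower genes include CSF2 and IL11. The other 4, named after their values were seen, were IRGQ (-1.37), POU2F2 (-1.14), PLXNA3 (-1.08) and PLD6 (-1.04), which makes 4 of 77 genes (5.19%) without the members. In cocultured HS-5 cells IRGQ, PLXNA3 and PLD6 stood at 7.68, 7.27 and 10.1 CPM, near the minimum of 10 CPM set for the mean. POU2F2 stood at 193 CPM. The share therefore rests on few genes, most of them at low levels.

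At equal depth fewer stromal cells of the coculture held CSF3 or CSF2. When cells were thinned to 1000 UMIs, which left 1802 HS-5 cells from monoculture and 999 from coculture, 53.2% (50.9–55.5) of cells held CSF3 in monoculture and 30.7% (27.9–33.7) in coculture. CSF2 was found in 13.9% (12.4–15.6) and 2.5% (1.63–3.67) of these cells. The shares of both genes were lower in coculture by more than their intervals.

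For the rarer members the answer depended on the depth used. At 1000 UMIs, IL11 was found in 4.99% (4.03–6.10) of thinned cells in monoculture and 3.0% (2.04–4.26) in coculture, CSF1 in 1.83% and 1.70%, and LIF in 1.22% and 1.80%, with overlapping intervals for each. At 500 UMIs, which kept 3515 and 1802 HS-5 cells, IL11 was found in 2.62% (2.12–3.20) and 1.05% (0.636–1.64), without overlap, and LIF in 0.825% and 0.666%. In thinned MM.1S cells (3870 alone and 379 in coculture) no member passed 0.528% of cells. CSF2 and LIF were found in 0 thinned MM.1S cells, and the exact intervals of these shares of cells with a UMI reached 0.0953% alone and 0.969% in coculture. MM.1S cells serve as the background of free RNA, and all HS-5 shares lay above it in point value, although the interval of CSF1 in cocultured HS-5 cells (0.994–2.71) overlapped that in cocultured MM.1S cells (0.0640–1.89). Without thinning, the shares of HS-5 cells with CSF3 were 58.2% and 34.9% and those with CSF2 16.6% and 2.76%. The unthinned shares were 7.18% (6.37–8.06) and 2.66% (2.02–3.45) for IL11, 3.56% (2.99–4.21) and 1.76% (1.24–2.42) for CSF1, and 2.06% and 1.71% for LIF.

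Cells that held CSF3 or CSF2 also held fewer copies of it in coculture. CSF3-positive thinned cells averaged 1.97 UMIs in monoculture and 1.39 in coculture, and CSF2-positive cells 1.22 and 1.04. The averages were 1.10 and 1.00 for IL11, 1.09 and 1.00 for CSF1, and 1.09 and 1.17 for LIF. Such an average falls with the level of a gene, so it is not separate from the lower levels given above. Cells with 5 or more CSF3 UMIs numbered 58 in monoculture (3.22%, against 0.447% in a Poisson distribution of the same mean) and 1 in coculture (0.10%, against 0.00843%). The variance of CSF3 UMIs was 1.95 times their mean in monoculture and 1.34 times in coculture, where even sampling gives a variance equal to the mean. This ratio grows with the mean, which was 1.05 UMIs per cell in monoculture and 0.428 in coculture, so it does not compare the unevenness of the cultures. CSF3 UMIs were spread over stromal cells more unevenly than even sampling gives in both.

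**Figure D2:**
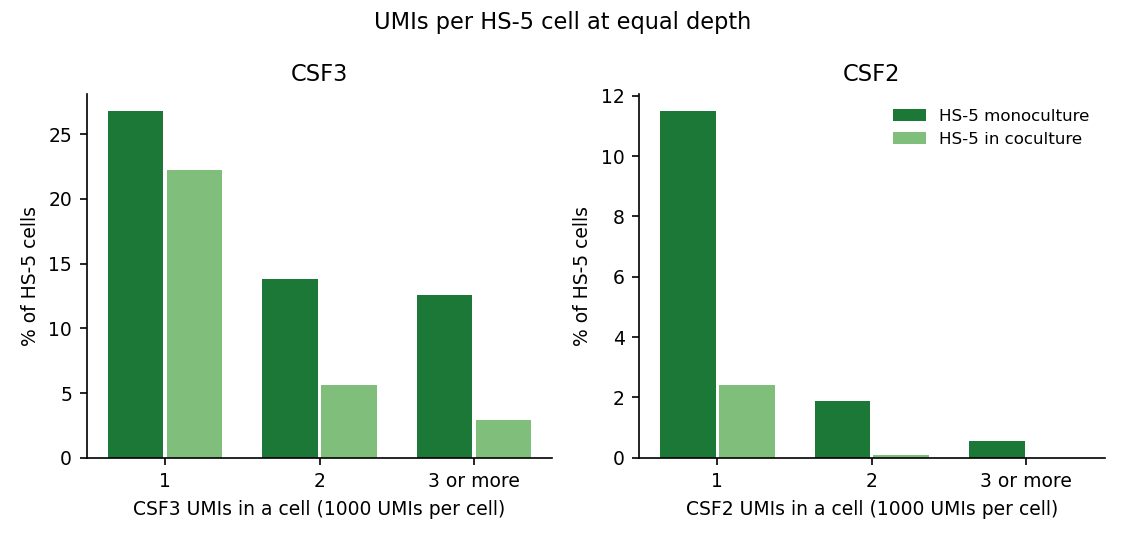
Percentage of HS-5 cells with 1, 2 or at least 3 UMIs of CSF3 (left) and CSF2 (right) after each cell was thinned to 1000 UMIs, for monoculture and coculture. Cells with at least 3 CSF3 UMIs made up 12.6% in monoculture and 2.90% in coculture, and those with at least 3 CSF2 UMIs 0.555% and 0.

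A few deep cells held much of the CSF2 counted in monoculture. Before thinning, 107 of the 3732 HS-5 cells in monoculture (2.87%) had 3 or more CSF2 UMIs, and these cells held 47.0% of all CSF2 UMIs. The highest cell held 27 CSF2 UMIs among 12067 in all, and cells with CSF2 had a median of 2035.5 UMIs against 890.5 in cells without it. In coculture 1 cell of 2102 had 3 CSF2 UMIs and none had more. For CSF3, the cells with 10 or more UMIs were 53 in monoculture and 1 in coculture.

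Depth moved with these values, and its part in the differences was examined within ranges of depth. Cells with at least 2000 UMIs were 20.2% of the HS-5 monoculture and 12.5% of HS-5 cells from coculture. In monoculture, the CSF2 level was 115 CPM in cells of 500 to 1000 UMIs, 163 CPM in cells of 1000 to 2000 and 235 CPM in deeper cells, whereas that of CSF3 was 1214, 1206 and 679 CPM. In cells under 500 UMIs CSF2 was at 147 CPM (80.5–247) and CSF3 at 1115 CPM (913–1348). The deepest cells thus held the highest level of CSF2 and the lowest of CSF3, without an even trend over the shallower ranges.

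Within each of these ranges CSF2 was lower in coculture, at 23.9, 25.4 and 32.4 CPM, which is 4.81-, 6.42- and 7.25-fold lower. CSF3 was at 566, 470 and 353 CPM in coculture, 2.14-, 2.57- and 1.92-fold lower. IL11 was 2.93-, 2.04- and 1.92-fold lower in the same ranges, with intervals that excluded equality in all 3. Under 500 UMIs, CSF2 in coculture was at 8.04 CPM from 1 UMI, and CSF3 was 1.56-fold lower. The log2 ratio of IL11 there was -2.39, with an interval (-8.01 to 0.95) that included equality. The intervals of CSF1 and LIF included equality in every range.

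At 1000 UMIs per cell, cells with both members of a pair were compared with the number that independent detection gives. Each interval takes the count of such cells as Poisson and the expected number as fixed. An interval that includes 1 therefore does not show independence. CSF2 and CSF3 were found together in 147 thinned monoculture cells, where the product of their shares gives 134, a ratio of 1.10 (0.930–1.29). In monoculture CSF2 was found in 15.3% of cells with CSF3 and 12.3% of cells without it, with a Pearson correlation of 0.07. In coculture, 12 cells held both where 7.68 would, a ratio of 1.56 (0.807–2.73), and the shares with CSF2 were 3.91% and 1.88%. For the other 9 pairs of members the interval of the ratio also included 1 in both cultures. At least 1 member was found in 61.8% of thinned HS-5 cells grown alone and 36.3% of cocultured ones, and at least 3 members in 14 and 2 cells, where independence gives 12.2 and 0.920. At 500 UMIs, 11 monoculture cells held at least 3 members where independence gives 4.85, and without thinning, with cells of unequal depth, 125 did where it gives 54.3.

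CSF3 was counted most in cells that also held other inflammatory transcripts. Over the 1802 thinned monoculture cells, the genes with the highest Pearson correlation with CSF3 were IL1B (0.27), IL6 (0.25), CXCL8 (0.24), CXCL3 (0.16) and CXCL2 (0.15), which encode interleukins and neutrophil-attracting chemokines. Over the 999 cocultured cells the same genes had correlations of 0.20, 0.19, 0.19, 0.06 and 0.12, and 4 of the 5 were among the 100 genes most correlated with CSF3 there. Cells of 1 library are not replicates and the correlations are weak, so they are given as descriptions. They also depend on how many cells hold a gene (959 for CSF3 and 251 for CSF2), so members are not ranked by them.

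For CSF2 the highest values were those of CXCL8 (0.20), HIST1H4C (0.14), H2AFZ (0.13), IL1B (0.12) and IL6 (0.11). The histone transcripts, of which HIST1H4C is made in S phase, had correlations of 0.02 and -0.03 with CSF2 in coculture, whereas CXCL8 and IL1B kept 0.12 and 0.14. For CSF1, IL11 and LIF, found in 33, 90 and 22 of the monoculture cells, no gene passed 0.14, and their leading genes lay between -0.03 and 0.07 in coculture.

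Summed over a list, other inflammatory transcripts were as frequent in cocultured stromal cells as in those grown alone, although single genes differed. The list of 16 cytokine, chemokine and related genes without any member had a median of 6.0 UMIs per thinned HS-5 cell in both. The median log2 ratio of the 16 genes was 0.19, against -0.04 over all genes. At least 2-fold lower were 0 of the 16, and at least 2-fold higher were 2, CCL2 (1.98) and CCL7 (1.39). A negative ratio was found for 6 of the 16, among them CXCL8 (-0.42). The list genes were IL6, CXCL8, CXCL1, CXCL2, CXCL3, CXCL5, CXCL6, CCL2, CCL7, CCL20, IL1A, IL1B, PTGS2, TNFAIP6, SOD2 and ICAM1. Cells were put in 4 ranges by their UMIs of this list, with limits near the monoculture quartiles.

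CSF3 was higher in cells that held more of these transcripts and lower in coculture in every range. The list includes IL1B, IL6, CXCL8, CXCL3 and CXCL2, the genes most correlated with CSF3 in monoculture. For CSF2 it includes CXCL8, IL1B and IL6. The rise of either gene over the ranges in monoculture is therefore no observation separate from those correlations. In cells with 0 to 3, 4 to 6, 7 to 10 and 11 or more list UMIs, CSF3 counted 56.4, 80.7, 124 and 183 UMIs per 100 cells in monoculture and 21.5, 33.5, 47.5 and 74.9 in coculture. CSF2 counted 8.41, 13.5, 20.7 and 29.4 UMIs per 100 cells in monoculture and 1.09, 2.21, 1.81 and 5.63 in coculture. The intervals of the cultures did not overlap in any range for either gene, so cells of like inflammatory content had less CSF2 and CSF3 in coculture.

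IL11 counted 4.73, 4.21, 5.24 and 8.29 UMIs per 100 cells in monoculture, with overlapping intervals. LIF counted 0.350, 0.887, 2.09 and 2.51 UMIs per 100 cells over the ranges in monoculture, from 24 UMIs in all and with overlapping intervals, and 4.76 (2.38–8.52) in the highest range of coculture. CSF1 lay between 0.866 and 2.45 in every range of either culture. A range is a stretch of a score and no cell type.

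**Figure D3:**
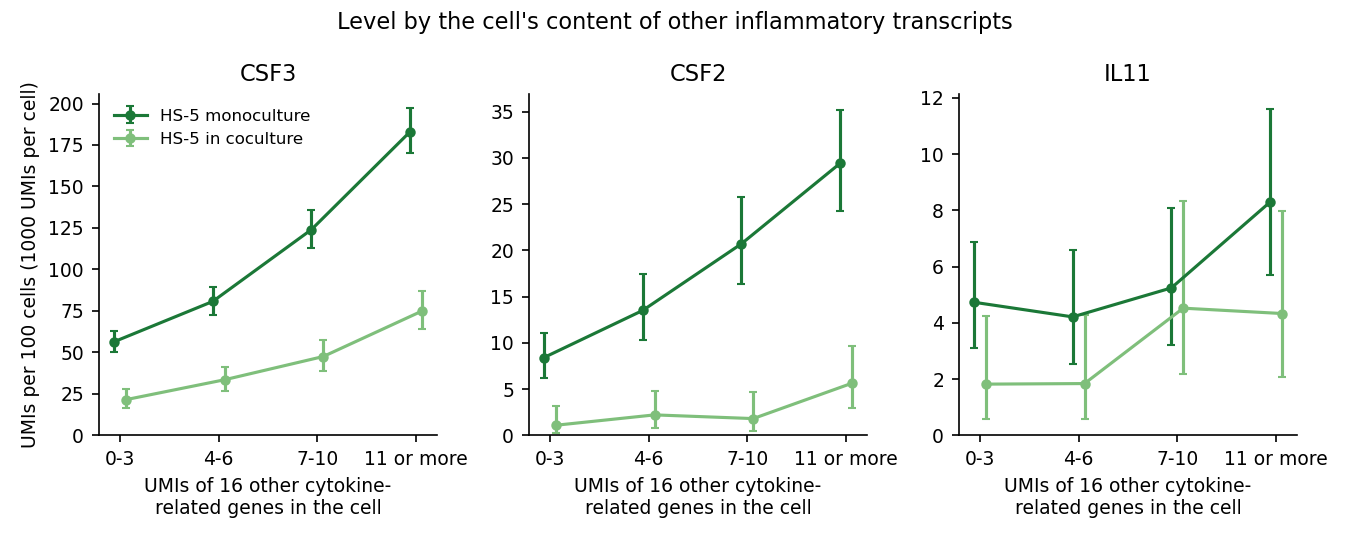
UMIs of CSF3, CSF2 and IL11 per 100 HS-5 cells (each cell thinned to 1000 UMIs) by the cell's UMIs of 16 other cytokine-related genes, in monoculture (dark) and coculture (light), with 95% counting intervals. CSF3 goes from 56.4 to 183 across the ranges in monoculture and from 21.5 to 74.9 in coculture, and the coculture points of CSF2 stay at or below 5.63.

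MM.1S cells held few transcripts of these cytokines. From the 162 stromal genes used to assign cells, HS-5 RNA was estimated at 1.59% of the RNA counted in MM.1S cells of the coculture. At that share 9.91 CSF3 UMIs would be found in these cells, and 6 (2.20–13.1) were. CSF2, IL11 and LIF had 1, 3 and 1 UMIs, where 0.554, 0.520 and 0.349 would be found. CSF1 had 8 UMIs (3.45–15.8), above the 0.324 that this share gives, and MM.1S cells also held CSF1 when alone.

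The receptors were looked up in a list of 14 receptor and signalling genes, of which CSF2RA was not found under that symbol. The receptor chains CSF1R, CSF3R, IL11RA and LIFR, the last of which is shared by several ligands of the gp130 family, were at most at 7.81 CPM in any population. LIFR had 7.81 and 7.68 CPM in HS-5 cells and 3.64 and 0.752 CPM in MM.1S cells, and CSF3R was at most at 1.79 CPM. IL6ST, which encodes gp130, was found at 157 and 158 CPM in HS-5 cells alone and in coculture, a log2 ratio of 0.01 (-0.16 to 0.18). Of the 7 genes of the list tested in HS-5 cells, none was 2-fold different, and SOCS3, a feedback inhibitor of JAK and STAT signalling, was higher in coculture by more than counting error (18.7 and 28.7 CPM, log2 ratio 0.59, 0.17 to 1.05).

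In MM.1S cells 6 genes of the list were tested, of which 4 were at least 2-fold higher in coculture, where 19.0% of 7834 genes were, and 1 was at least 2-fold lower, where 5.76% were. The median of the 6 was 1.66 and that of all genes 0.24 on the log2 scale. CSF2RB, the chain shared by the receptors of GM-CSF, IL-3 and IL-5, went from 8.63 to 69.9 CPM (log2 ratio 2.88, 2.58 to 3.45). SOCS3 went from 1.05 to 25.6 CPM and STAT3 from 17.9 to 93.2 CPM.

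IL6ST went from 69.1 to 140 CPM in MM.1S cells, with a log2 ratio of 1.01 that became 0.98 when free HS-5 RNA was subtracted. JAK1, a kinase bound to gp130, went from 158 to 71.4 CPM (log2 ratio -1.14, -1.46 to -0.85). The depth of MM.1S cells differed between these cultures as given above, and its part in these ratios was not tested.

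**Figure D4:**
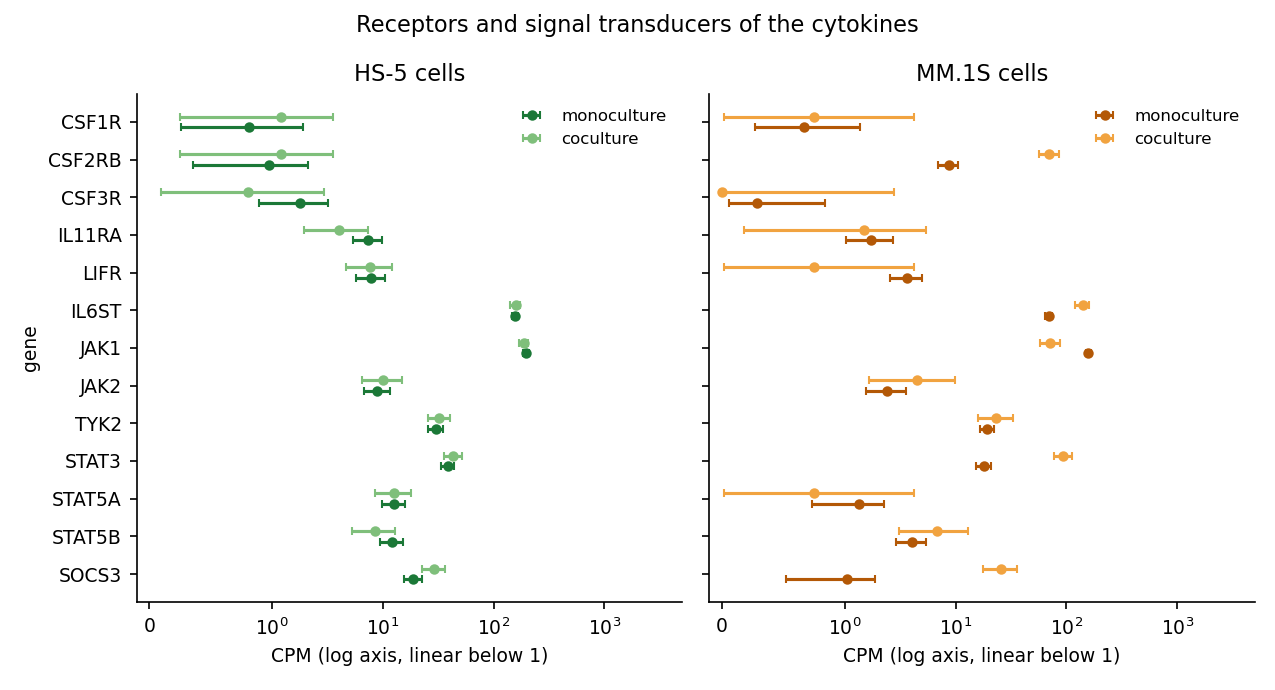
CPM of 13 receptor and signalling genes in HS-5 cells (left) and MM.1S cells (right) from monoculture (dark) and coculture (light), on a logarithmic axis that is linear below 1, with 95% counting intervals. CSF2RB, STAT3 and SOCS3 lie to the right in cocultured MM.1S cells, at 69.9, 93.2 and 25.6 CPM, and JAK1 lies to the left at 71.4 CPM.

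Among 10 related ligands, 2 passed the 10 CPM minimum in HS-5 cells. IL6, the founder of the gp130 family, stood at 1209 CPM alone and 1207 CPM in coculture, a log2 ratio of -0.00 (-0.06 to 0.06), so the most abundant gp130 ligand of the stromal line did not share the lower level of IL11. CLCF1, another ligand of that family, went from 14.5 to 8.48 CPM (log2 ratio -0.71, -1.53 to -0.07). Of the others, IL34, FLT3LG, KITLG, IL3, IL5, OSM, CTF1 and CNTF were all below 4 CPM in HS-5 cells.

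Of 7 genes for proteins that bind AU-rich messages, 6 were tested in HS-5 cells, and none was 2-fold different. ZFP36L1, which promotes decay, had 694 CPM alone and 549 CPM in coculture (log2 ratio -0.34, -0.43 to -0.25), HNRNPD 623 and 476 CPM (-0.39, -0.48 to -0.29), and KHSRP 188 and 125 CPM (-0.59, -0.78 to -0.41). ELAVL1, whose product stabilises such messages, was higher in coculture at 139 and 166 CPM (0.25, 0.08 to 0.42). The list's median was -0.18 against -0.04 over all genes.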

How the data were processed

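Single-cell libraries were made by Drop-seq from MM.1S cells, HS-5 cells and their coculture. The authors deposited UMI counts as whole numbers for each gene in each cell barcode, not normalized. The submitters' processing notes name Cell Ranger 3.0.2, UMI-tools 1.0.0, STAR 2.5.3a, featureCounts 1.6.4 and SAMtools 1.9, without their roles, and build GRCh38 (hg38), and the study's methods name Seurat. How barcodes and strand were handled is not given in the sources used here. The libraries held 3994, 3865 and 3963 barcodes with 10433182, 6143448 and 3981392 UMIs for MM.1S, HS-5 and coculture.

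Cells under 200 genes were dropped, and UMIs were summed per line and culture and scaled to CPM (Python 3.11.15, numpy 2.4.6, scipy 1.17.1). Line genes were at least 50-fold different between monocultures and at least 50 CPM in their own line, 162 for HS-5 and 63 for MM.1S. In coculture 3 UMIs were worth 1.21 CPM in HS-5 cells and 2.25 CPM in MM.1S cells. Log2 ratios have a pseudocount of 1 CPM, and understate changes of low genes. Intervals of levels are Poisson, of shares Clopper-Pearson, and of ratios of levels conditional binomial without the pseudocount. For cells with both members of a pair they are Poisson on the count of cells, with the expected number held fixed. UMIs are not fully independent, so intervals cover counting error only. Genes named were the members, their 5 most correlated genes (found in at least 2% of thinned monoculture cells) and lists of receptors, ligands and AU-rich regulators. The members and lists were chosen with earlier results of these data known. Gene positions, lengths and 3′ UTRs come from GENCODE 29, by each gene's longest transcript tagged basic. The log2 ratios and their intervals were tested on simulated counts, and thinning on the HS-5 monoculture cells. The other steps were not tested in this way. Alternatives covered cell filters, assignment limits, scaling, pseudocounts, depth and thinning.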

Additional observations from a re-analysis of the deposited data

Results flagged for a closer look

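For 3 of the 7 listed genes of proteins that bind AU-rich messages, the log2 ratio of coculture over monoculture went in opposite directions in the lines, each beyond counting error. With 1 library per condition the difference was not tested. How many of all genes took opposite directions was not counted, so nothing about these genes as a set is read from it. In MM.1S cells 19.0% of 7834 genes were at least 2-fold higher in coculture. ZFP36L1 was at -0.34 in HS-5 cells and 1.15 in MM.1S cells, a difference of 1.49. HNRNPD was at -0.39 and 1.72, a difference of 2.11. KHSRP was at -0.59 and 2.02, a difference of 2.61. After subtraction of free HS-5 RNA the MM.1S values of ZFP36L1, HNRNPD and KHSRP were 1.01, 1.69 and 2.01. The median over all genes was -0.04 in HS-5 cells and 0.24 in MM.1S cells, and the part of depth, which differed between the MM.1S populations (median 2201.0 and 669.0 UMIs per cell), was not tested.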

How the results depend on the processing

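No member's pooled log2 ratio changed direction in any of 16 settings, in which these ratios ranged from -2.87 to -2.46 for CSF2, -1.26 to -0.93 for CSF3, -1.28 to -0.92 for IL11, -0.80 to -0.45 for CSF1 and 0.09 to 0.24 for LIF. With cells of 200 to 2500 genes and under 5% mitochondrial UMIs, CSF2 was at -2.49 and CSF3 at -1.16. With cells of 500 to 2000 UMIs they were at -2.46 and -1.26. CSF3 was at -1.07 with equal weight per cell and, in a setting added after seeing the data, at -1.11 without the 5% of cells with most UMIs. Genes at least 2-fold lower in HS-5 cells, 161 as reported, numbered 339, 429, 320 and 271 under these settings in the order given. They numbered 90 with a pseudocount of 5, 52 with a minimum of 50 CPM and 741 with no minimum. Genes at least 2-fold higher, 107 as reported, numbered 352, 558, 391 and 333 under the first 4 of these and 912 with no minimum, more than the lower ones each time, which turns the balance of the calls. CSF2 and IL11 were the members at least 2-fold lower, and 1 member was left with median of ratios scaling, a pseudocount of 5 or a minimum of 50 CPM. CSF3 passed the limit too in the settings above that gave it -1.16, -1.26, -1.07 and -1.11, and with an HS-5 share above 0.5 (-1.0). With cells of at least 500 genes CSF3 passed (-1.01) and IL11 did not (-0.92). The ratio of observed to expected cells with both CSF2 and CSF3 was 1.34 without thinning. After subtraction of free RNA, CSF3 in cocultured MM.1S cells came to -2.94 CPM, below 0. No paired analysis was possible because each condition has 1 library, and for the same reason no replicate could be left out. Depth limits CSF1 and LIF most, with 38 and 41 UMIs in cocultured HS-5 cells.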

Other observations

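The 103 coculture cells that were assigned to neither line, with 166706 UMIs in all, held CSF3 at 162 CPM (107–236), between the levels of the assigned HS-5 and MM.1S cells of the coculture. In these cells CSF2 was at 18 CPM (3.71–52.6), LIF at 12 CPM, from 2 UMIs, and IL11 at 6.0 CPM, from 1 UMI. CSF1 had 0 UMIs, which allows up to 22.1 CPM.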
